A study of Mus musculus with 8 samples.

Results

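The cells described here were 493 thymic epithelial cells of 16-week-old mice that carried messenger RNA of gut and liver genes. They were chosen by 4 conditions on unique molecular identifiers (UMIs, each standing for 1 captured mRNA molecule). The epithelial genes Epcam, Krt8, Krt18 and Krt5 had to sum to at least 3 UMIs and to more than the collagen and decorin genes Col1a1, Col1a2, Col3a1 and Dcn. Aire had to stay under 2 UMIs, and the cortical genes Psmb11 and Prss16 under 0.1% of the cell's UMIs. Finally, at least 2 of Hnf4a, Hnf4g, Saa1, Apoa4, Lypd8 and Reg3g had to be detected. The 493 cells, called members here, were 175 cells of library 1 and 318 of library 2. They belonged to 4208 epithelial cells by the same rule, 6677 cells of 16 weeks and 9953 cells in the whole series.

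Medullary thymic epithelial cells (mTEC) display peptides of genes that are otherwise confined to other organs, and developing T cells that react to them are deleted or diverted. The transcriptional regulator Aire opens many such genes in mature mTEC. Mimetic mTEC are a further kind of mTEC that use the lineage factors of a peripheral tissue to express a good part of that tissue's programme. The nuclear receptors Hnf4a, in gut and liver, and Hnf4g, in gut, are such lineage factors. They act on genes such as those of fat absorption and the brush border, and Hnf4a also on acute phase proteins.

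The series combined single-cell RNA sequencing with antibody tags (CITEseq) on stromal cells from thymi of C57BL/6 mice at 1 and 16 weeks of age, with no treatment and no genetic change. At each age the cells came from 1 pool of several thymi, depleted of CD45+ blood cells and sorted into EpCAM1+ and EpCAM1- fractions that were mixed again, and 2 wells of that pool were made into 2 libraries. The 2 libraries of an age are therefore technical repeats, and differences between them cover neither mice nor sorts. Libraries 1 and 2 of 1 week held 1846 and 1430 cells. Library 1 of 16 weeks held 1939 cells with 21281389 UMIs, and library 2 held 4738 cells with 45480790 UMIs. Among the libraries, 15 cell barcodes occurred more than once, and 0 of these belonged to a member.

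Members were set beside 3 other classes of 16-week cells. Aire-high cells, with at least 2 Aire UMIs under the same epithelial rule, numbered 397 and 1158 in libraries 1 and 2. Other Aire-low cells, which met the rule for members except that fewer than 2 of the 6 genes were detected, numbered 589 and 1387. Collagen-high cells, with at least 10 UMIs of the 4 collagen and decorin genes and more of these than of the epithelial genes, numbered 586 and 1426, and were used to read how often free RNA in the droplets gives a UMI. Median UMIs per cell were 7895 and 6451 in members, 9575 and 8111 in Aire-high cells, 4938 and 4486 in other Aire-low cells, and 12255 and 10552.5 in collagen-high cells. The epithelial identity of the members rests on the rule, and collagen-high cells also carried Aire: 50.6% of them had an Aire UMI and 19.9% had at least 2, so a few Aire UMIs also occurred in cells outside the epithelial rule.

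The 6 genes encode 2 nuclear receptors, an acute phase protein, an apolipoprotein and 2 defence proteins, and they lie on 6 chromosomes of the mouse build GRCm38. Hnf4a (ENSMUSG00000017950) lies at chr2:163506808-163572910 on the plus strand and Hnf4g (ENSMUSG00000017688) at chr3:3508030-3658052 on the plus strand. Saa1 (ENSMUSG00000074115), the acute phase protein serum amyloid A, lies at chr7:46740497-46742980 on the minus strand. Apoa4 (ENSMUSG00000032080), an apolipoprotein secreted by absorbing gut cells, lies at chr9:46240696-46243459 on the plus strand. Lypd8 (ENSMUSG00000013643), a protein of the colon surface that keeps bacteria off the epithelium, lies at chr11:58379043-58390728 on the plus strand. Reg3g (ENSMUSG00000030017), an antibacterial lectin of the gut, lies at chr6:78466269-78468872 on the minus strand.

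Members made up 14.4% of the epithelial cells in library 1 (exact binomial 95% interval 12.5% to 16.5%) and 10.6% in library 2 (9.55% to 11.8%), with a mean of 12.5% ± 2.65 (SD, n = 2 libraries). The 2 intervals do not overlap, so the wells differed by more than counting error. These shares may also depend on how the sorted fractions were mixed, which was not tested. Of the Aire-low cells without cortical signal, 22.9% and 18.7% were members. At least 2 of the 6 genes were more frequent in Aire-high cells, at 42.1% and 34.8%, and were also present in 22.4% and 11.6% of collagen-high cells, which were the deepest class. When every cell was thinned to 3000 UMIs, the classes were kept as chosen before thinning. The 511 Aire-low, 129 Aire-high and 167 collagen-high cells that were shallower were left out. These shares became 8.17% of Aire-low cells, 12.8% of Aire-high cells and 1.90% of collagen-high cells. Before thinning they were 19.97%, 36.7% and 14.8%. Aire-high cells thus stayed highest and collagen-high cells lowest.

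Most members carried little of these genes. Exactly 2 of the 6 genes were detected in 382 members, 3 genes in 85 and 4 or 5 genes in 26. In 232 members the evidence was 1 UMI of each of 2 genes. The median member had 3 UMIs of the 6 genes together, 34 members had 10 or more and the highest had 499. Just outside the rule stood 1001 Aire-low cells with 1 of the 6 genes, 607 of which had Reg3g alone. Their median depth was 5061 UMIs, against 6137.5 in the members with exactly 2 genes. Of the members, 234 had the 1 Aire UMI that the rule allowed and 259 had none.

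**Figure D1:**
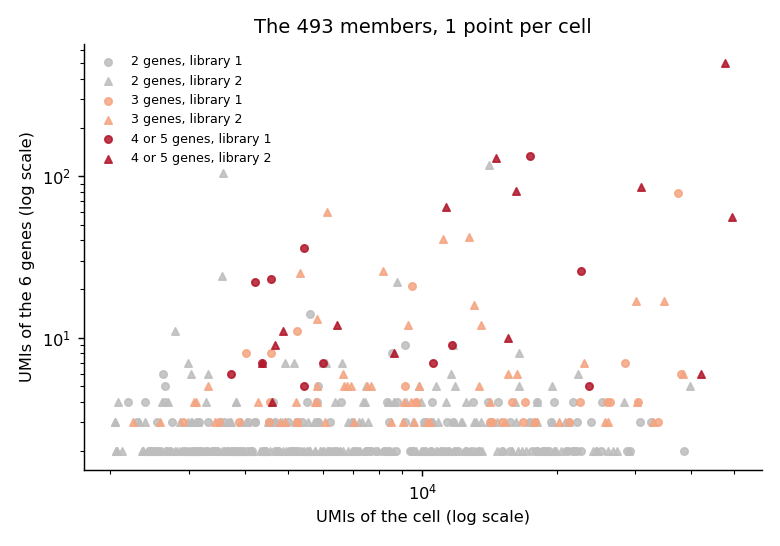
Each point is 1 of the 493 members, placed by its UMIs (x axis, log scale) and by its UMIs of the 6 rule genes (y axis, log scale), with shape for the library and colour for the number of the 6 genes detected. Most cells lie along the bottom at 2 to 4 UMIs of the 6 genes, and the dark red cells with 4 or 5 genes reach from 4 to 499 UMIs.

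The label under which these cells were grouped, gut and liver mimetic mTEC, was not borne out for most of them. Of its 4 markers, Hnf4a was detected in 7 members, with 16 UMIs in all, 10 of them in a single cell. At least 3 of the 4 markers Hnf4a, Lypd8, Reg3g and Saa1 were present in 38 members and all 4 in 3. The commonest pairs were Saa1 with Reg3g in 105 members, Lypd8 with Reg3g in 99, Apoa4 with Reg3g in 58 and Hnf4g with Reg3g in 43. Reg3g was the gene that admitted most members, being present in 403 of them, and it was also the gene most often met outside them. The cells are therefore called members below and not by a cell type.

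The presence of each rule gene in members follows from the rule and is given as a description. Hnf4a had a UMI in 1.71% and 1.26% of members of libraries 1 and 2, in 1.01% and 0.950% of Aire-high cells and in 1 collagen-high cell. Hnf4g, the second receptor, had a UMI in 21.1% and 27.7% of members, 13.1% and 10.9% of Aire-high cells, 2.55% and 2.52% of other Aire-low cells and 1.37% and 1.61% of collagen-high cells. It was thus the least frequent of the other 5 genes in the collagen-high cells, although these were the deepest. Saa1 was present in 49.1% and 45.0% of members and in 16.9% and 10.2% of collagen-high cells. Reg3g was present in 84.0% and 80.5% of members, 61.5% and 55.4% of Aire-high cells, 33.1% and 29.7% of other Aire-low cells and 44.7% and 38.3% of collagen-high cells. Reg3g was thus more frequent in collagen-high cells than in other Aire-low cells, which the rule limits to at most 1 of the 6 genes, and after thinning the shares were 16.4% and 17.0%.

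**Figure D2:**
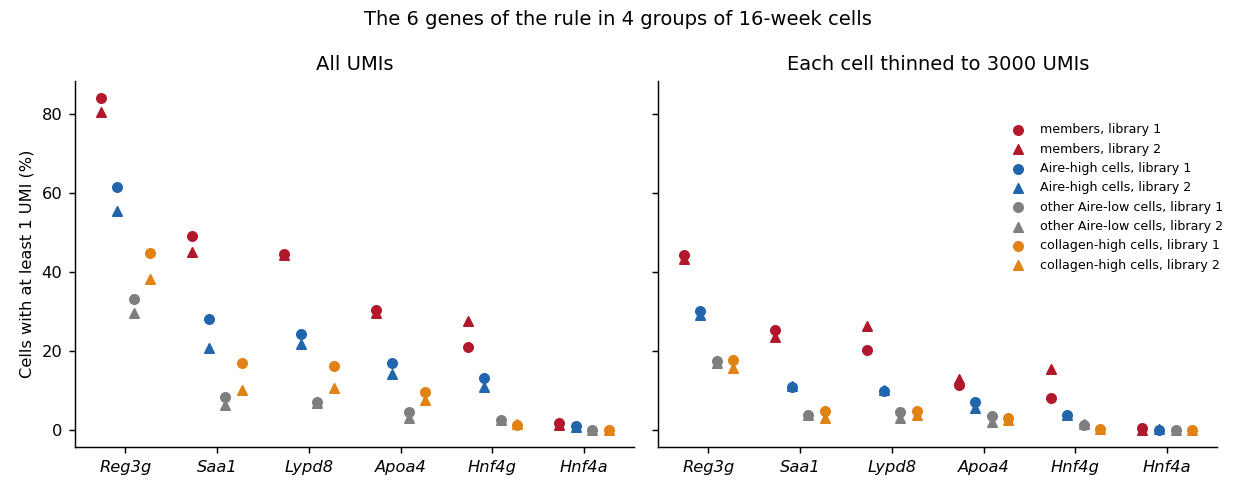
Percent of cells with at least 1 UMI of each rule gene (y axis) in members, Aire-high cells, other Aire-low cells and collagen-high cells of 16 weeks, circles for library 1 and triangles for library 2, over all UMIs (left) and with each cell thinned to 3000 UMIs (right). Members were selected on these genes and stand highest over all UMIs, and Reg3g was found in 44.7% and 38.3% of collagen-high cells there. After thinning, Hnf4a was found in 0% of members of library 2 and in 0.285% of its Aire-high cells.

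When the UMIs of a class were summed and scaled to its total (CPM), members did not exceed Aire-high cells throughout. Reg3g stood at 208 and 385 CPM in members of libraries 1 and 2 and at 271 and 586 in Aire-high cells, so it was lower in members in both. Apoa4 was likewise lower, at 51.9 and 44.7 CPM in members against 71.8 and 87.3. Saa1 was at 118 and 176 CPM in members against 111 and 74.3, and Lypd8 at 55.1 and 150.1 against 297 and 131, so the libraries went opposite ways for Lypd8. Hnf4g was higher in members in both libraries, at 25.9 and 47.4 CPM against 13.2 and 12.8. A few cells carried much of these sums: the 5 highest members held 46.2% of the Saa1 UMIs, 44.4% of the Lypd8 UMIs and 40.8% of the Reg3g UMIs, but 12.2% of the Hnf4g UMIs. In Aire-high cells 1 cell held 1927 of the 10374 Reg3g UMIs and another held 826 of the 3765 Lypd8 UMIs.

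Whether the genes came together was looked at by leaving each in turn out of the choice, among the Aire-low cells without cortical signal. Hnf4g was present in 12.8% of cells with at least 2 of the other 5 genes and in 5.91% of cells with 0 or 1 of them. For Apoa4 the shares were 15.2% and 7.52%, for Saa1 21.0% and 13.9%, for Lypd8 21.9% and 13.1%, for Reg3g 52.1% and 40.0%, and for Hnf4a 1.02% and 0.152%. In Aire-high cells they were 17.4% and 8.52% for Hnf4g, 31.7% and 19.4% for Saa1, and 33.5% and 18.1% for Lypd8. Cells with at least 2 other genes were deeper, for Hnf4g with a median of 6536 against 4719 UMIs. In collagen-high cells the same count gave 2.48% and 1.39% for Hnf4g, 11.8% and 7.67% for Apoa4, 16.8% and 11.6% for Saa1, 18.2% and 11.7% for Lypd8, and 57.0% and 39.5% for Reg3g, with medians of 13760 and 10499 UMIs for Hnf4g. The part of depth in these shares was not tested.

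Compared with Aire-high cells over the genes outside the rule that passed a limit on level, the members showed lower expression of a few genes. No such gene was at least 4-fold higher in both libraries. A gene was counted when its summed CPM differed at least 4-fold in the same direction in both libraries and averaged at least 50 CPM over the 4 sums. This is a rule of size with no test, since the rule chose the cells on RNA and the libraries are wells of 1 pool. Of 3312 genes, 0 were higher in members (0%) and 6 were lower (0.181%). At 2-fold, 3 genes were higher (0.0906%) and 87 were lower (2.63%). At 4-fold with no filter on low counts, 346 of 31756 genes were higher and 402 lower. The median log2 ratio of all 3312 genes was 0.018, with 1347 genes above 0 in both libraries and 1261 below. With library 1 left out 2 genes were higher and 10 lower, and with library 2 left out 4 were higher and 43 lower, so the counts rest on asking for both. After thinning each cell to 3000 UMIs the classes were chosen anew, which gave 67 and 152 members. Of the former members 55 and 105 still had at least 2 of the 6 genes, so some of the new members had not been members before. Between these new classes 7 genes were higher, Muc13, Pigr, Lgals4 and Reg1 among them, and 2 were lower. With each cell weighted equally 0 were higher and 1 was lower.

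The 6 lower genes were of different kinds and included a gene of cell division, a chemokine gene and a hormone gene. Top2a, the topoisomerase of dividing cells, stood at 23.3 and 17.3 CPM in members and 131 and 108 in Aire-high cells, with log2 ratios of -2.48 and -2.63. Ccl25, a chemokine that attracts thymocytes, was at 138 and 145 CPM against 628 and 867, with log2 ratios of -2.18 and -2.58. It stands on the list of cortical genes, and members but not Aire-high cells had to keep under a limit on 2 other cortical genes, so the choice of cells bears on its difference. The hormone gene Fgf21, better known from liver, was at 36.0 and 45.8 CPM against 255 and 192. The other 3 were the calcium-binding protein gene S100a2, the giant muscle protein gene Ttn and the neuropeptide gene Calcb, with log2 ratios between -3.16 and -2.05. All 6 were lower still in collagen-high cells, where Top2a for instance was at 19.9 and 14.0 CPM. The 3 genes higher at 2-fold, the chemokine gene Ccl11, the carboxypeptidase-like gene Cpxm1 and the podoplanin gene Pdpn, were higher again in collagen-high cells, with Ccl11 at 395 and 618 CPM in members and 772 and 768 in collagen-high cells.

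Genes of antigen presentation and of less mature mTEC lay on opposite sides. On a list of 15 genes of mTEC maturation, 10 were measured above the limit and all 10 were lower in members in both libraries, with 0 at 4-fold, 2 at 2-fold and a median log2 ratio of -0.74. Over all genes 38.1% were lower in both libraries, 2.63% at 2-fold, and the median was 0.018. Cd74, the invariant chain that guides MHC class II, was at 6982 and 8309 CPM in members and 14338 and 11572 in Aire-high cells. Fezf2, a transcription factor that governs a further set of tissue genes in mTEC, was at 120.2 and 136 CPM against 356 and 291. Cd40, a receptor for T cell help, was at 28.1 and 31.9 CPM against 113 and 106. On a list of 6 genes of intertypical TEC, a less mature state, 5 were measured and all 5 were higher in both libraries, against 40.7% of all genes, with a median log2 ratio of 0.88 and 1 at 2-fold. Ccl21a, the chemokine that draws T cells into the medulla, was at 7098 and 6811 CPM in members against 3439 and 3801 in Aire-high cells. Other Aire-low cells stood at 7465 and 6778 CPM of Ccl21a and at 6517 and 6622 CPM of Cd74, close to the members.

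Beyond the rule genes, the gut and liver lists gave little in the members as a whole. Of 25 transcription factors of gut and liver, 23 were detected and 4 measured above 50 CPM, with 0 called. Cebpa, a liver and myeloid factor, was at 67.2 and 70.8 CPM in members against 44.6 and 48.0 in Aire-high cells, and Klf4, an epithelial differentiation factor, at 454 and 461 against 257 and 339.6. The gut factor Cdx1 was at 22.8 and 29.8 CPM in members against 132 and 101 in Aire-high cells. It was close to other Aire-low cells, where it was at 22.6 and 19.97.

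Genes of fat transport, defence, brush border and secretion were equally mixed. Among 21 genes of lipoproteins and fat absorption 2 were measured, Apoe and Apoc1, both higher in members in both libraries but under the 4-fold limit. Apoe was at 2403 and 2351 CPM in members, 1177 and 1416 in Aire-high cells and 4105 and 3684 in collagen-high cells, which held the most of it. Of 22 acute phase and antimicrobial genes 5 were measured, 3 of them lower in members in both libraries, such as Pglyrp1, a protein that binds bacterial walls, at 76.2 and 122 CPM against 95.2 and 171. Saa3, a further serum amyloid, was at 199 and 123 CPM against 137 and 262. The brush border gene Ezr, which ties membranes to actin, was at 178 and 191 CPM in members and 177 and 192 in Aire-high cells. Of 31 secreted and metabolic liver genes 3 were measured and Fgf21 was the 1 called, as lower. Ttr, the thyroid hormone carrier made by liver, was at 30.2 and 37.3 CPM in members, 4.41 and 29.3 in Aire-high cells and 5.77 and 3.67 in other Aire-low cells. Fcgbp, a mucus protein of goblet cells, was at 2425 and 2744 CPM in members against 3149 and 2819.

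Markers of other stromal and blood cells were also read in the members. Mural genes (Rgs5, Acta2 and Pdgfrb) summed to 1024 and 739 CPM in members, 406 and 573 in Aire-high cells and 1009 and 1021 in other Aire-low cells. All 4 endothelial genes were detected and summed to 172 and 103 CPM in members, 60.8 and 81.8 in Aire-high cells and 214.5 and 239 in other Aire-low cells. The 9 T cell genes summed to 55.6 and 116 CPM in members and 103 and 115 in Aire-high cells, and the myeloid and dendritic genes to 161 and 296 CPM against 589 and 663 in Aire-high cells. A doublet caller marked 10 of the 493 members. Without marked cells in either class, 0 genes were higher and 7 lower. The part of these markers in the results was not tested.

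The 26 members with 4 or 5 of the 6 genes differed from this picture. They were looked at separately after the values had been seen, so what follows describes 12 cells of library 1 and 14 of library 2 and carries no test. Their median depth was 5712.5 and 12986.5 UMIs, and their median count of the 6 genes 8 and 11.5. The doublet caller marked 0 of them. Against Aire-high cells, 26 of 3292 genes were higher at 4-fold in both libraries (0.79%) and 10 were lower (0.304%), with a median log2 ratio of all genes of -0.091. Of the 26 genes, 22 were under 50 CPM in Aire-high cells of both libraries and passed the limit on level only through these cells, so their number is no measure of strength. The genes were picked for being high in these cells, so lower values in other classes follow in part from that choice and are descriptions. Members with 2 or 3 of the genes and collagen-high cells were lower for all 26 in both libraries. The 58 Aire-high cells with at least 4 of the 6 genes were lower for 21 of the 26 in both libraries, but carried many of these genes too, such as Pigr at 205 and 181 CPM, and exceeded the 26 members in library 2 for the other 5, Ttr (414 against 341 CPM), Prap1 (339 against 264 CPM), Gsta1 (217 against 111 CPM), Guca2b (111 against 61.2 CPM) and Gpa33 (131 against 126 CPM).

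Of the 26 higher genes, 6 were on the gut and liver lists, which had 159 genes, 34 of them tested among the 3292, and the others included genes better known from other tissues. Muc13, a membrane mucin of the gut surface, stood at 184 and 383 CPM in the 26 cells, 11.3 and 21.1 in Aire-high cells and 6.22 and 13.4 in members with 2 or 3 genes, and 10 of the 26 cells had it, with 51.6% of its UMIs in 1 cell. Cdhr5, a cadherin that links microvilli of the brush border, was at 159 and 184 CPM against 20.4 and 27.8 in Aire-high cells, and was present in 12 of the cells. Lgals4, a gut galectin, was at 167 and 1312 CPM against 22.2 and 49.98, but 1 cell held 80.2% of its UMIs. Pigr, which carries antibodies across the gut wall, was at 367 and 279 CPM against 43.7 and 42.5 and was found in 14 of the cells. Ttr was at 325 and 341 CPM against 4.41 and 29.3, and Ces2a, a carboxylesterase of gut and liver, at 125 and 68.9 against 2.94 and 4.37. Guca2b, the gut peptide uroguanylin, was at 309 and 61.2 CPM against 3.60 and 9.61, with 66.0% of its UMIs in 1 of the 4 cells that had it. Elf3, an epithelial transcription factor, was the most widely shared, in 17 of the 26 cells, at 284 and 253 CPM against 52.3 and 54.9.

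The rest of the higher genes were Eps8, which caps actin in microvilli, the surface antigen gene Gpa33, the detoxifying enzyme genes Gsta1 and Gsta4, the lung lectin gene Sftpd, the protease inhibitor gene Spink1, the growth factor gene Hbegf, and Prap1, Tstd1, Ms4a10, Rn7sk, Myo15b, Krt23, Mmp15, Myh14, 2200002D01Rik, Slc4a7 and Hpgds. Without the cell with most UMIs of the 6 genes in each library, 18 of the 26 stayed past 4-fold in both libraries, of which Ces2a, Ms4a10 and Guca2b then averaged under 50 CPM, so that 15 remained called, Muc13, Ttr, Lgals4, Cdhr5, Pigr, Eps8 and Elf3 among them. Gsta4, Sftpd and Gsta1 turned below 0 in 1 library, where the cell left out had held most of their UMIs. The 10 lower genes included S100a2, Ogfrl1, Myh11, Top2a, Utf1, Fgf21, Gm29461, Ccl25 and Grp, and 8 of the 10 remained. Myh11, the myosin of smooth muscle, was at 8.34 and 26.8 CPM (1 and 7 UMIs) in the 26 cells and at 124 and 82.2 in the members with 2 or 3 genes. The lower genes rested on few UMIs in the 26 cells, such as 3 and 0 for Top2a and 4 and 1 for S100a2, while Ccl25 had 12 and 33.

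**Figure D3:**
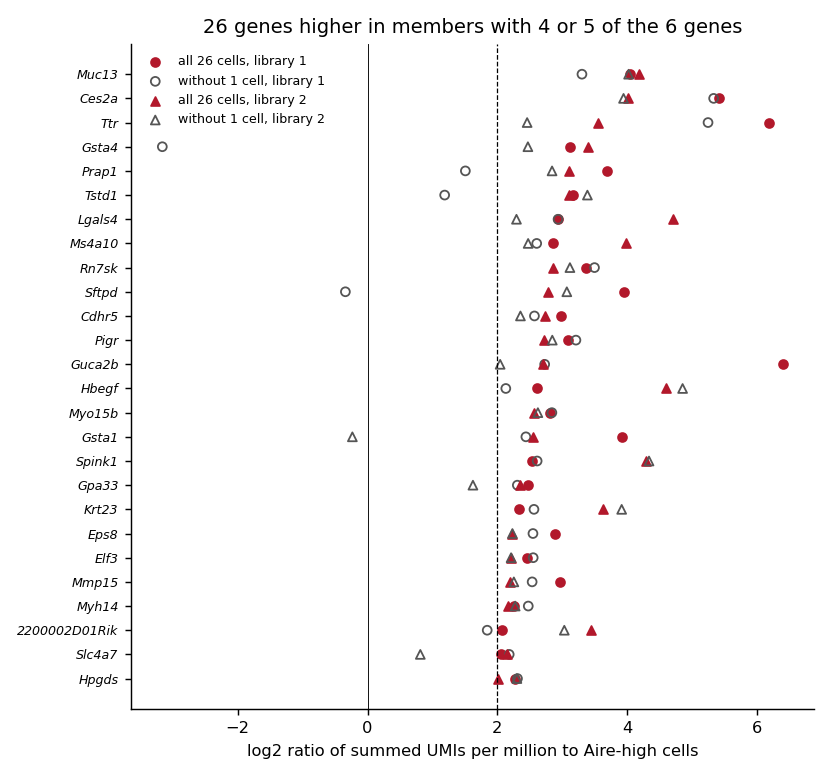
log2 ratio of summed CPM in the 26 members with 4 or 5 of the 6 genes over Aire-high cells (x axis) for the 26 genes higher at 4-fold in both libraries (dashed line at 2), circles for library 1 and triangles for library 2. Open symbols leave out the cell with most UMIs of the 6 genes in each library, and 18 of the genes stayed past the line in both libraries.

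Summed lists without the rule genes went different ways. Brush border genes summed to 529 and 501 CPM in members with 2 genes, 669 and 831 with 3, and 1302 and 1863 with 4 or 5, against 586 and 647 in Aire-high cells. Gut and liver transport genes summed to 62.6 and 59.99 CPM with 2 genes and 592 and 421 with 4 or 5, against 135 and 119.9 in Aire-high cells, but in library 1 the last sum was 71 UMIs, 35 of them Guca2b in 1 cell. Goblet and mucin genes went opposite ways in the libraries, from 2479 and 3136 CPM with 2 genes to 3371 and 2453 with 4 or 5. The transcription factors of gut and liver summed to 706 and 681 CPM with 2 genes and 1694 and 1431 with 4 or 5, and the acute phase and antimicrobial genes to 292 and 479.9 and to 1660.3 and 1714. Lipoprotein genes went the other way, from 2915 and 2998 CPM to 1393 and 1779, a list on which Apoe alone gave 2403 and 2351 CPM over all members. Maturation and antigen presentation genes summed to 14027 and 15735 CPM with 2 genes and to 12699 and 24363 with 4 or 5, against 27947 and 23803 in Aire-high cells, so the libraries went different ways. Intertypical genes were lower in both libraries, at 10864 and 10961 CPM with 2 genes and 2203 and 5326 with 4 or 5. Endothelial genes stood at 217 and 113 CPM with 2 genes and at 16.7 and 19.1 with 4 or 5. Myeloid and dendritic genes stood at 137 and 213 CPM with 2 genes and 217 and 1003 with 4 or 5, and microfold genes at 202 and 302 and at 350.4 and 960.4. The part of these markers was not tested.

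**Figure D4:**
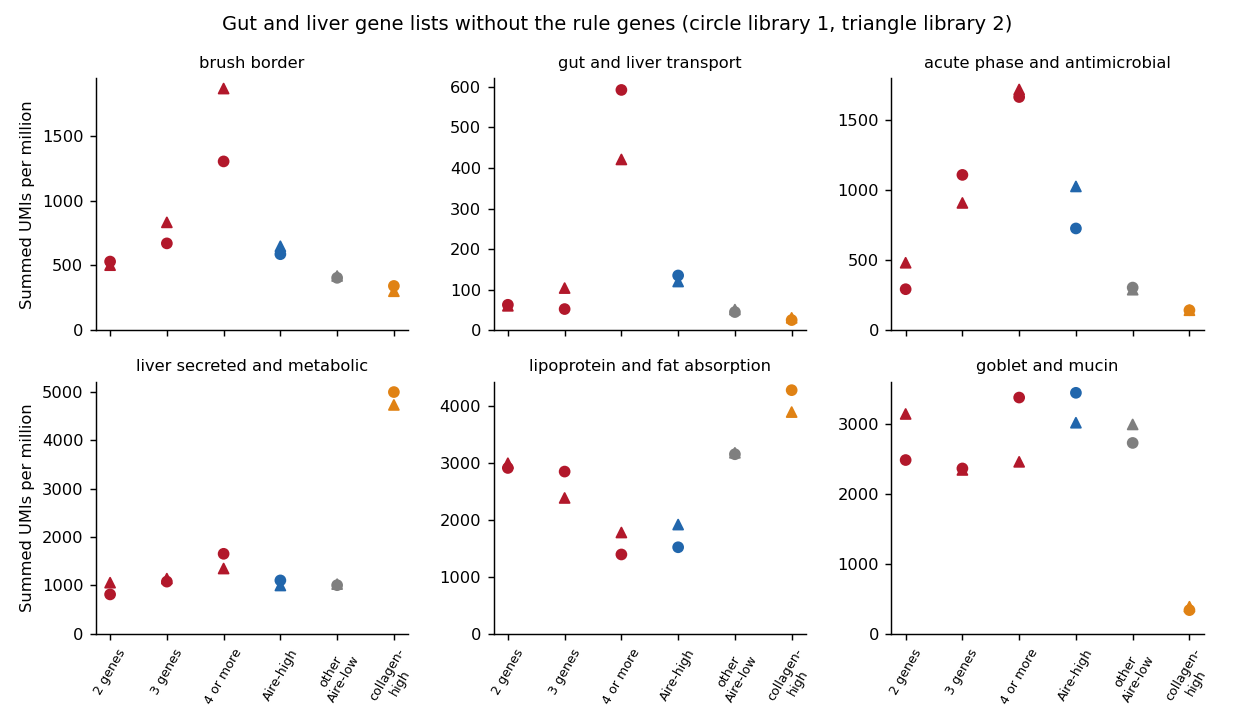
Summed CPM (y axis, from 0) of 6 gut and liver gene lists without the rule genes, in members with 2, 3 and 4 or more of the 6 genes (red) and in Aire-high (blue), other Aire-low (grey) and collagen-high (orange) cells, circles for library 1 and triangles for library 2. Brush border, transport and acute phase lists are highest in both libraries in the members with 4 or more genes, and lipoprotein and liver lists are highest in collagen-high cells, where Apoe and C3 are high.

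The 26 cells differed among themselves in how many of the 26 higher genes they carried, from 2 to 24 with a median of 10.5 at a median depth of 9599 UMIs. Since the genes were picked for being high in these cells, the number is a description and is not compared with other classes. The fullest cell, of library 1, had 17476 UMIs with 24 of the genes, 78 UMIs of Reg3g, 30 of Apoa4, 35 of Guca2b, 22 of Ttr and 20 of Ccl20, a chemokine of epithelium over gut lymphoid follicles. A cell of library 2 with 47567 UMIs had 324 of Reg3g, 106 of Lypd8, 64 of Saa1, 55 of Ttr and 27 of Muc13 but 0 of Hnf4a. The cell with the most Hnf4a, 10 UMIs among 14657, had 61 of Saa1, 52 of Lypd8, 63 of Muc13, 19 of Cdhr5 and 1 of Reg3g. These 3 cells had 0 Aire UMIs and carried the rule genes in unlike proportions. Other members held much of 1 or 2 rule genes and few of the rest: a cell with 14129 UMIs had 95 of Saa1 and 22 of Lypd8 with 1 UMI of Muc13 and 0 of Cdhr5 and Ttr, and a cell with 3570 UMIs had 101 of Reg3g.

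Cells with at least 4 of the 6 genes also existed on the Aire-high side, and genes of other mimetic programmes were no more frequent in members than in Aire-high cells for the 3 lists given here. Of the Aire-high cells 58 had at least 4 of the 6 genes, or 5.54% and 3.11% in libraries 1 and 2, at a median depth of 27445 UMIs. Of the 7 genes of microfold cells, which sample bacteria over gut lymphoid follicles, at least 2 were detected in 20.5% of members, 33.2% of Aire-high cells and 25.0% of collagen-high cells, and in 15 of the 26 members with 4 or 5 rule genes. At least 2 neuroendocrine genes were found in 17.8% of members and 42.1% of Aire-high cells, against 5.42% of collagen-high cells, and at least 2 tuft cell genes in 8.72% and 10.8%, against 7.75%. For microfold genes the share of all members lay under that of collagen-high cells, and that of the members with 4 or 5 rule genes, 57.7%, above it.

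Promoters of the rule genes and of the 26 higher genes were searched, on both strands of RefSeq sequence (GRCm38.p6) from 250 bases before to 50 after each start, for CAAAGTCCA, a site of HNF4. Over all 32851 promoters, 0.475% held these letters. Among the rule genes 5 matched the table, with 7 promoters, and 0 held them. Of the 26 higher genes 19 matched, with 20 promoters, of which 1 held them (5%), the second start of Muc13. The 30-base window below shows the match in capitals, 5′ to 3′ on the strand of the gene, where it reads as the reverse complement. It is printed because it is the only match among these genes, and a match is no evidence that a factor binds.
Muc13, second start, chr16:33794293-33794322, plus strand, within the gene outside its exons: acagttgtccTGGACTTTGagtcaaggata

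The surface proteins, measured as antibody-derived tag (ADT) counts, were not used to choose the members and could be tested. For each cell the counts were scaled to the mean total and averaged as log2(count + 1) within each well and class, and 27 tags in 6 such means were fitted with limma, with Benjamini-Hochberg adjustment over the 27. The spread is that between 2 wells of 1 pool. Members differed from Aire-high cells in 15 of 27 tags (55.6%), 13 higher and 2 lower, and 25 tags had the same sign in both wells. Median ADT counts were 3140 and 2492 in members and 10352 and 7056 in Aire-high cells, so the scaling bears on every direction. Without scaling 0 tags were higher and 6 lower, with a centred log ratio 6 were higher and 6 lower, and without the MHCII tag in the total 10 were higher and 5 lower. Only CD80 and MHCII were called in the same direction under each of these scalings that held them, and the other directions below hold for the scaling to the total.

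With scaling to the total, Sca1 had the largest difference, and MHCII and CD80 were the 2 tags called lower in members. Other tags of antigen presentation and T cell costimulation did not pass, with CD40 at -0.46 (limma adjusted p = 0.051), CD274 at -0.11 and CD86 at 0.46. CD40 and CD274 did pass, as lower, with a centred log ratio (-1.11 and -0.73) and with no scaling (-1.49 and -1.11). The positive value of CD86 holds for the scaling to the total. Its unscaled median count was 4 and 2 in members and 6 and 3 in Aire-high cells. These 4 of the tags in the plot of surface tags are shown with their designed barcodes, by which reads were assigned, as examples of tags higher and lower in members:
Sca1: ttcctttcctacgca
CD63: atccgacacgtatta
CD80: gacccggtgtcattt
MHCII: ggtcaccagtatgat
Sca1, a glycoprotein of immature cells encoded by Ly6a, was at 7.80 and 7.87 in members and 6.04 and 6.23 in Aire-high cells on the log2 scale, a difference of 1.70 ± 0.078 (SE, limma adjusted p = 0.00036). CD73, an enzyme that makes adenosine, was higher by 0.89 ± 0.046 (limma adjusted p = 0.00036), and the integrin CD49a by 1.41 ± 0.16 (limma adjusted p = 0.0034). CD63, a protein of lysosomes and secretory vesicles, was higher by 0.80, Podoplanin by 1.32, the tetraspanin CD9 by 1.22, and Epcam, the protein used in the sort, by 0.69. The differences of CD63 and Epcam turned sign without scaling, and that of Epcam also with a centred log ratio. MHCII, at 10.35 and 10.36 in members and 10.97 and 10.87 in Aire-high cells, was lower by 0.56 ± 0.050 (limma adjusted p = 0.0018). CD80, a costimulatory ligand for T cells, was lower by 0.75 ± 0.12 (limma adjusted p = 0.0082). Other Aire-low cells differed from Aire-high cells in the same directions. They were at 8.28 and 8.35 for Sca1, 2.60 and 2.67 for CD73, and 3.95 and 3.82 for CD49a. For MHCII they were at 10.22 and 10.16 and for CD80 at 2.81 and 2.57, so these differences were not particular to members. RNA lay on the same side as the tag for some of these proteins, with Ly6a at 1100.3 and 1415 CPM in members against 605 and 756, and Pdpn at 73.6 and 66.8 against 34.8 and 33.2. It did not for Cd63, at 288 and 325.3 CPM against 322 and 325.7, nor in both libraries for Epcam, at 662.9 and 663.2 against 631.7 and 684.9.

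Against other Aire-low cells 0 of 27 tags passed (0%), with 6 at an unadjusted limma p under 0.05. The 2 nearest were Sca1, lower in members by 0.48 ± 0.078, and CD54, an adhesion molecule, lower by 0.27 ± 0.054, each with a limma adjusted p of 0.080. With the well as a replicate block, 1 of the 27 tags passed, Sca1. With an epithelial minimum of 5 UMIs 4 tags passed, Sca1, CD54, CD73 and CD200, all lower in members, and with at least 3 of the 6 genes 11 passed. The 0 thus depends on these settings and does not show that the 2 classes were alike.

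Within the members, tag levels differed with the number of rule genes detected, and these values are descriptions. Sca1 was at 8.02 and 8.16 in members with 2 genes, 7.49 and 6.82 with 3, and 6.03 and 7.06 with 4 or 5. CD63 went from 4.01 and 3.70 with 2 genes to 1.90 and 2.00 with 4 or 5, below its 2.80 and 2.85 in Aire-high cells. Podoplanin went from 4.53 and 3.98 to 1.62 and 2.47. CD80 was at 2.79 and 2.82 with 2 genes and at 4.59 and 4.02 with 4 or 5, above the 3.79 and 3.59 of Aire-high cells. CD54 was at 5.95 and 6.59 with 4 or 5 genes against 7.70 and 7.71 with 2. MHCII was at 11.32 and 10.76 with 4 or 5 genes against 10.23 and 10.25 with 2. In these 6 tags, picked after their values were seen, the cells rich in rule genes lay nearer to Aire-high than to other Aire-low cells in both wells. Other tags went the other way: Epcam was at 7.03 and 6.54 with 4 or 5 genes, against 6.401 and 6.455 in other Aire-low and 5.76 and 5.89 in Aire-high cells, and CD40 at 3.58 and 2.56, against 3.41 and 3.23 and against 3.86 and 3.81. CD54, CD63 and Podoplanin were lower in them than in either class. Median ADT counts were higher with more genes, from 2621 and 2206 to 6603.5 and 5096.5.

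**Figure D5:**
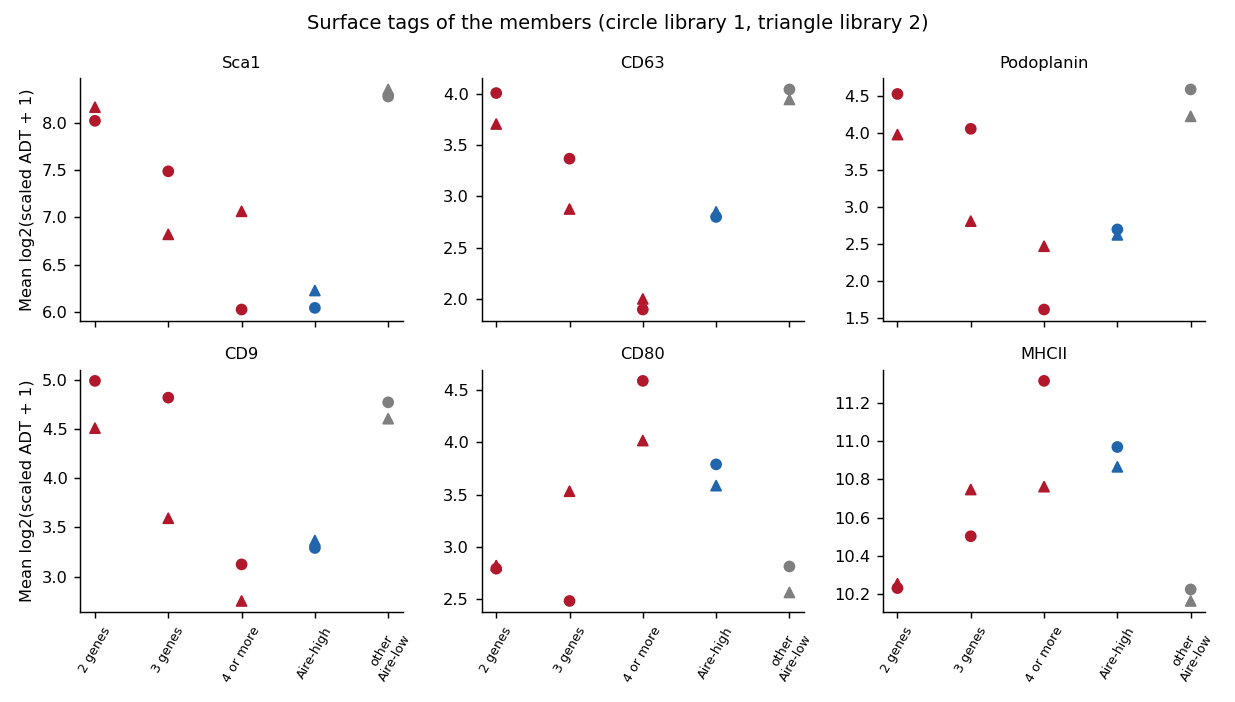
Mean log2(scaled ADT count + 1) per well (y axes, each on its own scale and not from 0) of 6 surface tags in members with 2, 3 and 4 or more of the 6 genes (red), Aire-high cells (blue) and other Aire-low cells (grey), circles for library 1 and triangles for library 2. Sca1, CD63, Podoplanin and CD9 are lower and CD80 and MHCII higher in both wells with 4 or more genes than with 2.

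At 1 week, which the rule for members did not use, the same rule found 44 and 29 cells, or 2.85% and 2.56% of 1543 and 1131 epithelial cells. Of the Aire-low cells without cortical signal these were 15.2% and 11.2%. At least 2 of the 6 genes occurred in 20.7% and 24.1% of Aire-high cells and in 11.4% and 4.81% of collagen-high cells. As at 16 weeks, 63 of the 73 cells had exactly 2 genes. Hnf4a was present in library 2 alone, with 8 UMIs in 10.3% of its members. Saa1 was at 383 and 423 CPM in 1-week members and 27.5 and 26.04 in Aire-high cells, an excess in a gene the rule selects on. In library 1 a single cell held 207 of the 254 Saa1 UMIs, and another held 753 of the 1013 Reg3g UMIs. Of the 6 genes lower in members at 16 weeks, Ccl25 was at 404 and 387 CPM in 1-week members against 3935 and 3026 in Aire-high cells, and S100a2, Ttn, Fgf21 and Calcb were also lower in both libraries.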

How the data were processed

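Droplet 3′ single-cell RNA counts and antibody tag (ADT) counts of 2 wells of 1 cell pool per age were used. The authors aligned reads with STARsolo 2.7.9a to mm10 and deposited raw UMI counts per gene and cell, and ADT counts, of cells with at least 2000 UMIs. Of 55487 gene identifiers, 55141 matched a symbol. The labels and the study's methods name different kit versions, so the version is not given here. The members and gene lists were chosen with earlier results of these data known. Collagen-high cells and the members with at least 4 genes were added after seeing the data.

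UMIs were summed per well and class and scaled to total UMIs, with 0.5 added to each sum for ratios. Genes named were the rule genes, genes past the fold rule, up to 4 others with most UMIs per gut or liver list, and tags past the test. Genes of the 26 members with at least 4 rule genes and of single cells, Cdx1, and the maturation and intertypical examples were picked after their values were seen. limma 3.58.1 in R 4.3.3 tested tags at an adjusted p of 0.05. The fold rule was run on simulated Poisson sums and the tag test on simulated independent values. These held neither sums dominated by single cells nor deviations shared within a well, so they do not cover those features of the data. Classes with the same library number come from the same well, and their tag deviations correlated at 0.36, 0.69 and 0.74 between the 3 classes, so the numbers pair them. The doublet caller's automatic limit marked 12 of all cells, so a set rate was used, which marked 253. Alternatives covered depth, doublets, thresholds, filters, TMM factors (edgeR 4.0.16), size factors (DESeq2 1.42.0), tag scaling and left-out wells. Some named genes and a motif are not reported here. Intervals cover counting error only.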

Additional observations from a re-analysis of the deposited data

Results flagged for a closer look

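The following results went one way in both libraries of 16 weeks and the opposite way in both of 1 week. These differences were not tested, since each age is 1 pool of cells. The 6 lower genes, Muc13, Ttr, Guca2a, Guca2b and 27 tags were compared. Top2a had a mean log2 ratio of members over Aire-high cells of 0.63 at 1 week (0.74 and 0.52 in the libraries), with 285 and 295 CPM in members and 171 and 206 in Aire-high cells, and of -2.55 at 16 weeks. Other Aire-low cells of 1 week were at 367 and 392 CPM of Top2a. The CD54 tag differed between members and Aire-high cells by -0.62 at 1 week (-0.72 and -0.53 in the wells), against 0.20 and 0.038 at 16 weeks. The CD83 tag, of a protein of mature antigen-presenting cells, differed by -0.44 at 1 week (-0.48 and -0.40), against 0.026 and 0.046. At 16 weeks CD83 lay near the floor, with a count in 14.3% and 13.8% of members and in 25.4% and 17.4% of Aire-high cells. The CD270 tag, a member of the TNF receptor family, differed by -0.040 at 1 week (-0.061 and -0.019), against 0.92 and 0.68. These signs hold for scaling to the total. At 16 weeks the CD54 wells were at -0.83 and -0.74 with a centred log ratio and at -1.23 and -1.10 with no scaling, the same sign as at 1 week. Without scaling CD83 was at -0.14 and -0.066 and CD270 at -0.42 in both wells. The part of age, depth and sort in these differences was not tested.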

How the results depend on the processing

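The share of members among epithelial cells, 12.5%, was 6.84% with no Aire UMI allowed, 2.83% with at least 3 of the 6 genes and 0.727% with at least 4. It was 6.76% after thinning to 3000 UMIs with the classes chosen anew, and 10.6% to 14.4% with 1 library left out. The count of genes higher in members, 0, became 2 with at least 3 genes (Chgb and Muc13), 26 with at least 4, 19 with at least 4 without the highest cells, 7 after thinning (2210407C18Rik, Car8, Lgals4, Muc13, Pigr, Reg1 and Wfdc17), 2 to 4 with 1 library left out (2 without replicate 1, 4 without replicate 2), 3 at 2-fold and 346 with no filter on low counts. The count of lower genes, 6, became 10 with at least 4 genes, 11 without their highest cells, 2 after thinning, 10 to 43 with 1 library left out (43 without replicate 2), 87 at 2-fold, 20 at a limit of 20 CPM, 402 with no filter and 1 with each cell weighted equally. With edgeR's TMM factors it was 7 and with DESeq2's size factors 6. The 15 tags against Aire-high cells became 2 with at least 3 genes, 5 with at least 4 and 6 with no scaling, and the 0 tags against other Aire-low cells became 4 with an epithelial minimum of 5 UMIs, 11 with at least 3 genes, 17 with at least 4 and 1 without the MHCII tag (Epcam). With a replicate block, the pairing of wells gave 16 and 1 tags (Sca1). Turns of sign were followed for the 15 called tags against Aire-high cells, and for Sca1 and CD54 against other Aire-low cells. Tags that were not called are not listed. The differences turned as follows. With at least 3 genes CD63 was -0.0090 and CD300LG -0.020. With at least 4 genes CD9 was -0.39, CD49a -0.023, CD63 -0.88, CD73 -0.44, CD200 -0.53, CD270 -0.055, MadCAM1 -0.32, Podoplanin -0.62, CD80 0.61, MHCII 0.12, CD36 -0.027 and CD300LG -0.15. With a centred log ratio CD270 was -0.040 and Epcam -0.18, and CD54 against other Aire-low cells 0.072. With no scaling CD63 was -0.25, CD200 -0.092, CD270 -0.42, MadCAM1 -0.15, Epcam -0.55, CD36 -0.040, CD133 -0.025 and CD300LG -0.091, and against other Aire-low cells Sca1 was 0.061 and CD54 0.25. Removing marked doublets, or counting Hnf4a and Hnf4g as 1 gene, kept each count of genes and tags within 1.5 times. Of the other values of named genes, 286 moved by less than 1 SD and 110 by more, and of tag differences most kept direction and call, 33 lost and 7 gained the call. Leaving out a well was not run for tags, as no residual degrees of freedom remain. Choices over at least 4 genes were added after seeing the data. The causes were not tested.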
